A study of Mus musculus with 6 samples.

Results

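Small nucleolar RNAs and small Cajal body RNAs were examined in total RNA of the right kidney from male mice, all 6 months old. The members were all genes of the deposited table whose symbol begins with Snora, Snord or Scarna. They numbered 118 of 23396 genes and divided into 36 H/ACA box RNAs (Snora), 73 C/D box RNAs (Snord) and 9 small Cajal body RNAs (Scarna). A group of 3 mice of strain C57BL/6N-Far2tm2a(KOMP)Wtsi/2J, homozygous for the Far2 knockout allele, was compared with 3 wild-type C57BL/6N mice. The product of Far2 is fatty acyl-CoA reductase 2, an enzyme that makes fatty alcohols. The libraries were made from ribosomal RNA-depleted total RNA with a stranded kit. Libraries are named 0, 1 and 2 within a group, as in the deposited table. The labels give no more of the allele's structure than this strain name and the word knockout, and every cell type of the kidney is mixed in each library.

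C/D box RNAs guide 2′-O-methylation, and H/ACA box RNAs guide the change of uridine to pseudouridine, mostly in ribosomal RNA. Each kind is bound by its own set of core proteins in the nucleolus. Small Cajal body RNAs guide the same chemical changes in the spliceosomal RNAs and may carry either kind of box, or both. A few members act in cutting the ribosomal RNA precursor rather than in modifying it. In mammals most of these RNAs are trimmed out of introns, often from genes for ribosomal proteins and other parts of the translation machinery. Their host gene and their own stable RNA can therefore differ in level.

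The sequences below show the short boxed RNAs on which the results turn, as read from GENCODE transcripts of release M21 on build GRCm38 (mm10). For Snord17 (chr2:144265979-144266216, minus strand), the C/D RNA with the most fragments, capitals mark the C box (TGATGA) and the D box (CTGA). Snord104 (chr11:106500993-106501062, plus strand) has the shortest model of all tested members, and Snord32a (chr7:45127382-45127464, minus strand) has the lowest fold change. Both are marked in the same way.

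Snord17: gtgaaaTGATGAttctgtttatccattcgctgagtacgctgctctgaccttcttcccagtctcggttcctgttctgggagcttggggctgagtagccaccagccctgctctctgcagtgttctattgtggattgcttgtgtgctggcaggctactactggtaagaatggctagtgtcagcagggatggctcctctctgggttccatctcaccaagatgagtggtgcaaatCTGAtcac
Snord104: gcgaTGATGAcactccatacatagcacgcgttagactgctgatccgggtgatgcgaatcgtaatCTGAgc
Snord32a: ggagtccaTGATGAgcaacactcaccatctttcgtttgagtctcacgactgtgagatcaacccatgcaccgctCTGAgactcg

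Snora7a (chr6:115807975-115808114, minus strand) was second in fragments among the H/ACA RNAs. Snora78 (chr17:24719676-24719803, minus strand) has the smallest p of that class, and Snora26 (chr5:74093530-74093650, plus strand) has the highest fold change of all tested members. Capitals mark the H box (ANANNA, where one lay near the middle) and the ACA near the 3′ end. Scarna13 (chr12:105031075-105031349, minus strand) held the most fragments of its class, and capitals mark its ACA.

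Snora7a: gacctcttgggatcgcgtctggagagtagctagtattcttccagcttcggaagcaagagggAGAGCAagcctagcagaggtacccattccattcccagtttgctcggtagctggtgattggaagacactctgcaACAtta
Snora78: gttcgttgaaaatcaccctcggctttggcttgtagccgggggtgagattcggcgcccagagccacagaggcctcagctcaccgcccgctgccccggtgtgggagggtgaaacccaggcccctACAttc
Snora26: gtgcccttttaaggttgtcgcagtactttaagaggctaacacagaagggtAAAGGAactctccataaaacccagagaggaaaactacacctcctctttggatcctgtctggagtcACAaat
Scarna13: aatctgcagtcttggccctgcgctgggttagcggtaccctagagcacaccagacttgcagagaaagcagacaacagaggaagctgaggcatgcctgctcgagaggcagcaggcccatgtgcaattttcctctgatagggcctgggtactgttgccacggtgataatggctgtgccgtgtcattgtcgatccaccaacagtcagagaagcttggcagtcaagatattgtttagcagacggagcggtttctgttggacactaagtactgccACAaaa

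The boxes were searched on the RNA strand as a description. A C box within the first 25 bases was found in 45 of the 72 C/D members with a sequence, and a D box within the last 19 bases in 69. An ACA within the last 8 bases was found in 34 of 36 H/ACA members, and none of them held both a C and a D box. Of the 9 Scarna members, 4 held a C and a D box and 3 an H box and an ACA. The overlap of these letters between classes was not removed: 32 C/D members also held the H box letters, 6 the ACA and 2 both, and 4 H/ACA members held the D box letters.

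The libraries held from 15261362 to 20631158 fragments assigned to genes. Far2 itself had 40, 40 and 22 fragments in wild-type libraries 0, 1 and 2, against 28, 19 and 31 in the libraries labelled knockout. The groups overlapped (log2 fold change −0.23 ± 0.24 SE, adjusted p = 0.781 by edgeR's quasi-likelihood test with the Benjamini-Hochberg method), so Far2 does not check the labels, and the groups are named here by their labels. Which part of Far2 the tm2a allele alters is not given in the sources used here. All 8 kidney markers were present, with a summed level from 16323 to 19871 CPM (fragments of a gene scaled to a common library size). Wild-type library 0 stood apart by the tubular injury markers, of which Havcr1 stood at 21.5 CPM against 0.617 to 0.917 in the other 5 libraries. Of the 3 macrophage markers, Lyz2 stood at 83.7 CPM in that library against 9.96 to 22.9 in the others and Cd68 at 2.78 against 1.03 to 1.80, while Csf1r, at 61.2, lay within the range of the others (49.2 to 63.7). Among the other marker lists, the summed fat markers stood at 11.3 CPM in knockout-labelled library 2 and at 0.901 to 4.35 in the others. Hba-a1, a red cell marker, had 0 CPM in wild-type library 1 against 49.8 to 68.4 elsewhere, but its near-identical copy Hba-a2 had 111 CPM there, and the sum of both copies, at 111, lay within the 77.9 to 123 of the others. Wild-type library 1 stood apart by most tested members and by the ribosomal RNA precursor Rn45s, as described below.

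Of the 118 members, 75 had at least 1 fragment in some library. These were 30 of 36 H/ACA RNAs, 37 of 73 C/D RNAs and 8 of 9 Scarna RNAs. In every library 41 members had at least 1 fragment, and 27 reached a mean of 10 fragments. Another 41 members stood at 0 throughout, and Snora24 and Snord7 were listed only with fractions far below 1 fragment. A count of 0 allows up to 3 fragments of a library, which is 0.145 to 0.197 CPM here and covers counting error only.

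The members without a fragment were mostly short models. Their median length was 61 bases, against 101 bases for the 75 members with a fragment, using RefSeq gene lengths on GRCm38.p6. Among members of under 70 bases, 17 of 46 (37.0%) had a fragment, against 19 of 21 (90.5%) from 100 to 124 bases and 6 of 6 from 160 to 300 bases. Only 4 members of 100 bases or more lacked one. In 31 members the model was shorter than 80% of the GENCODE gene, and 21 of these lacked a fragment. Snord99 has such a short model but had 14 fragments in all. Capitals in its sequence (chr4:132310691-132310764, plus strand, inside the host transcript Snhg12) mark the 56 bases of 74 that the RefSeq model holds.

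Snord99: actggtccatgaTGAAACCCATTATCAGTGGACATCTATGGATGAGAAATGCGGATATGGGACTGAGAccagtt

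Scarna2 and Scarna10 also had truncated models, of 61 bases against 414 in GENCODE and of 71 against 325. They had 3 and 10 fragments in total. The loci of 6 further members in the deposited table lay away from the annotated genes, so their 0 does not measure the named RNA. These were Snord118 (U8, a processing RNA), Snord14a, Snord14c and Snord14d (copies of U14, a processing RNA), Snord53 and Snord116l1. Snord116 and Snord64, which belong to the imprinted Snrpn cluster known for expression in brain, also stood at 0.

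Fragments were concentrated on a few members. Together the members held 39133 fragments, 0.0363% of all assigned fragments. Snora74a held 61.1% of the H/ACA fragments, Snord17 61.1% of the C/D fragments and Scarna13 71.1% of the Scarna fragments. The 3 leading members of a class held 78.9% of H/ACA, 91.1% of C/D and 99.1% of Scarna fragments. These are shares of fragments and not levels per length.

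The class sums were higher in wild-type library 1 than in any other library. H/ACA RNAs stood at 146, 292 and 168 CPM in wild-type libraries 0, 1 and 2 and at 171, 122 and 123 in knockout-labelled libraries 0, 1 and 2. C/D RNAs stood at 107, 202 and 135 against 129, 98 and 81. In both classes the groups overlapped, since knockout-labelled library 0 lay above wild-type library 0. Scarna RNAs stood at 66.2, 71.3 and 59.9 CPM in wild-type libraries and at 57.1, 56.8 and 59.0 in knockout-labelled libraries, without overlap.

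**Figure D1:**
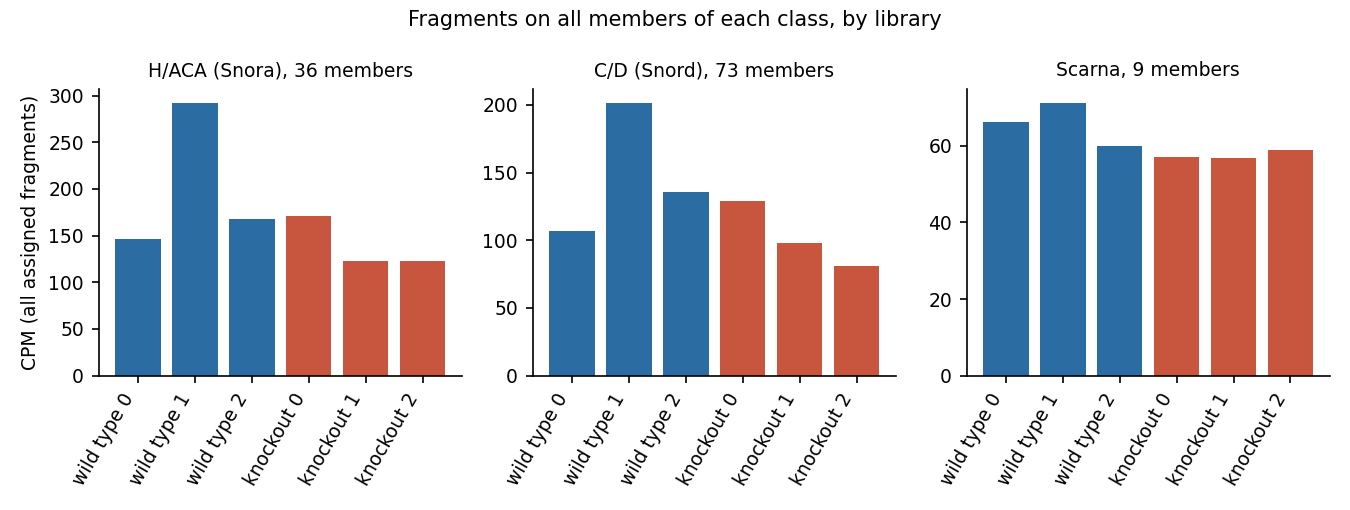
Bars give the fragments (CPM) on all members of each class in each of the 6 libraries (blue, wild type; red, labelled knockout). Wild-type library 1 is the highest bar in each panel, at 292 (H/ACA), 202 (C/D) and 71.3 (Scarna).

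The mean H/ACA sum was 202 ± 78.9 CPM in wild type and 139 ± 28.1 in the knockout-labelled group (SD, n = 3), a log2 ratio of −0.54. For C/D RNAs it was 148 ± 48.8 and 103 ± 24.4, a log2 ratio of −0.53. For Scarna RNAs it was 65.8 ± 5.71 and 57.6 ± 1.17, a log2 ratio of −0.19. The H/ACA and C/D differences were smaller than the spread of the wild-type libraries. Without wild-type library 1 the log2 ratios were −0.18, −0.24 and −0.13. No p is given for these sums.

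A total of 27 members passed the filter on low counts and were tested: 16 H/ACA, 8 C/D and 3 Scarna RNAs. None was called by edgeR at an adjusted p under 0.05, and of all 14354 genes tested 0 were called (0%). The smallest adjusted p of a member was 0.599. By DESeq2 13 genes (0.0906%) and no member were called. At an unadjusted p under 0.05 by edgeR, 6 members were lower in the knockout-labelled libraries and none was higher, or 22.2% of the tested members against 5.14% of all genes lower at that p (8.31% in both directions). The fold change was below 0 in 25 of 27 members (92.6%) against 51.7% of all genes. The median log2 fold change was −0.66 over the tested members and −0.01 over all genes. Since whole kidney was sequenced, fewer cells of a type and less RNA per cell cannot be told apart.

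**Figure D2:**
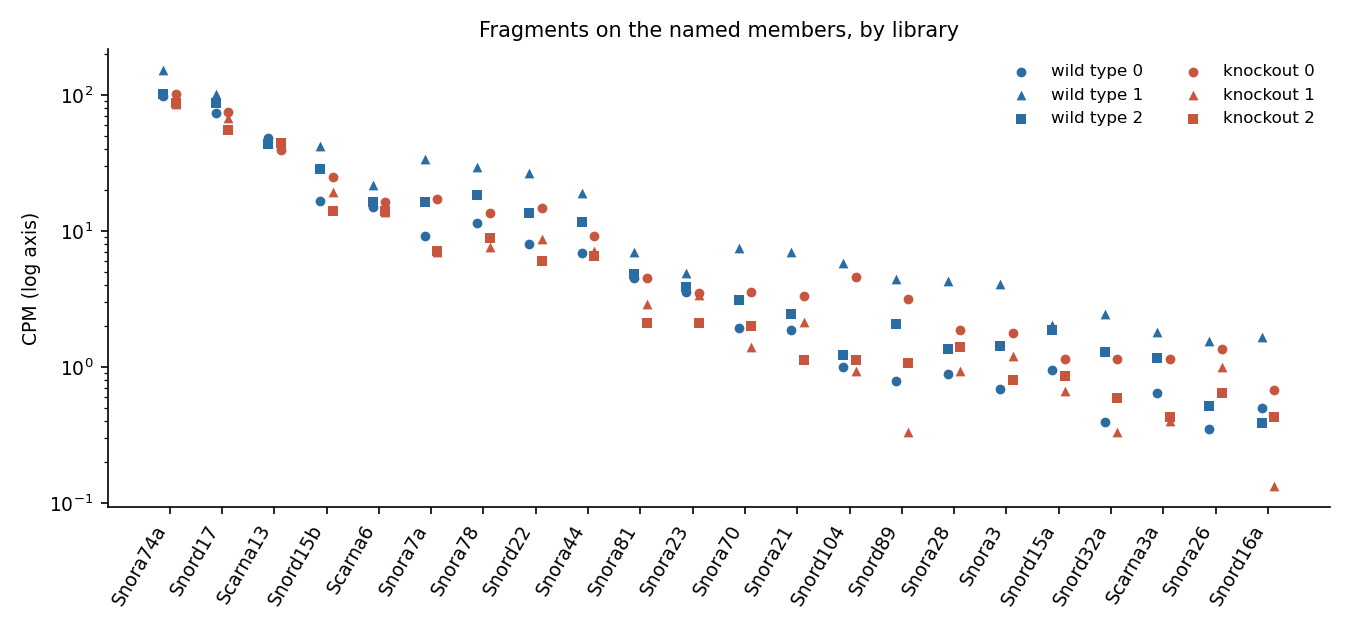
Points give CPM on library sizes scaled by TMM (log axis) for the 22 named members in each library (circle 0, triangle 1, square 2), ordered by mean fragments. For most members the blue triangle, wild-type library 1, is the highest point, and for Scarna13 it is not.

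Among the C/D RNAs, Snord17 had 1495, 2134 and 1350 fragments in wild-type libraries 0, 1 and 2 and 1323, 1018 and 1034 in knockout-labelled libraries 0, 1 and 2. On the CPM scale it stood at 87.7 ± 13.5 in wild type and 66.2 ± 9.87 in the knockout-labelled group (SD, n = 3). Wild-type library 0, at 74.2, lay just under knockout-labelled library 0, at 75.3, so the groups overlapped. The log2 fold change was −0.41 ± 0.13 (SE), with an unadjusted p of 0.011 and an adjusted p of 0.599 by edgeR.

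Snord15b and Snord15a lie in introns of Rps3, a protein of the small ribosomal subunit. Snord15b had 337, 896 and 440 fragments in the wild-type libraries and 439, 289 and 261 in the knockout-labelled libraries. Its log2 fold change was −0.59 ± 0.30 (edgeR's adjusted p = 0.603). Snord15a had 19, 43 and 29 against 20, 10 and 16 fragments, with a log2 fold change of −0.84 ± 0.36 (edgeR's unadjusted p = 0.041, adjusted p = 0.599). In both RNAs wild-type library 1 was the highest and a knockout-labelled library the lowest, and the groups overlapped.

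Of the listed C/D RNAs that act in cutting the ribosomal RNA precursor, Snord22 (U22) was the only one with a fragment. The others are Snord118 and the Snord14 copies, whose loci lay elsewhere. Snord22 had 163, 568 and 210 fragments in the wild-type libraries and 261, 131 and 111 in the knockout-labelled libraries. Its log2 fold change was −0.73, with a 95% interval from −1.67 to 0.21. Knockout-labelled library 0 lay above wild-type libraries 0 and 2, so the order within each group was as wide as the difference between groups.

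The introns of Rpl13a, a protein of the large ribosomal subunit, hold Snord32a, Snord33, Snord34 and Snord35a, which have been studied in cultured cells under lipotoxic stress. They had 116, 58, 5 and 20 fragments in all. Snord32a had 8, 52 and 20 fragments in the wild-type libraries and 20, 5 and 11 in the knockout-labelled libraries, the lowest fold change of the tested members at −0.99 (95% interval −2.38 to 0.39). Snord33 had 3, 27 and 9 against 10, 5 and 4 fragments, with a log2 fold change of −0.86 (−2.40 to 0.68). In each of these 4 RNAs wild-type library 1 held the most fragments.

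In the remaining named C/D RNAs, wild-type library 1 and knockout-labelled library 0 were the highest of their groups. Snord104 had 20, 122 and 19 fragments in the wild-type libraries and 80, 14 and 21 in the knockout-labelled libraries, so that 1 library of each group held most of its fragments. Snord89 had 16, 94 and 32 against 56, 5 and 20. Snord16a, in an intron of the ribosomal protein gene Rpl4, had 10, 35 and 6 against 12, 2 and 8 and did not pass the filter.

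Among the H/ACA RNAs, Snora74a (U19) had 1973, 3220 and 1573 fragments in the wild-type libraries and 1791, 1284 and 1622 in the knockout-labelled libraries. It stood at 118 ± 30.5 against 91.6 ± 9.05 CPM (SD, n = 3). Its log2 fold change was −0.36 ± 0.16 (edgeR's unadjusted p = 0.043, adjusted p = 0.599). Knockout-labelled library 0 lay at the level of wild-type libraries 0 and 2.

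Snora78 had 229, 621 and 283 fragments in the wild-type libraries and 237, 115 and 166 in the knockout-labelled libraries. Its log2 fold change was −0.97 ± 0.32 (edgeR's unadjusted p = 0.012, adjusted p = 0.599), and knockout-labelled library 0 lay above wild-type library 0. Snora44, inside the host transcript Snhg12, had 139, 400 and 179 against 161, 107 and 121 fragments, with a log2 fold change of −0.72 ± 0.31 (edgeR's unadjusted p = 0.043). Snora7a had 185, 712 and 254 against 300, 106 and 132, with a log2 fold change of −0.93 (95% interval −1.96 to 0.10).

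Snora81 and Snora23 were the members whose groups did not overlap, 2 of 27 (7.41%) against 6.96% of all genes tested that were lower without overlap. Snora81, in an intron of the translation factor gene Eif4a2, had 91, 148 and 75 fragments in the wild-type libraries and 79, 44 and 39 in the knockout-labelled libraries. In CPM its closest libraries were 4.52 in wild type and 4.50 in the knockout-labelled group. Its log2 fold change was −0.79 ± 0.28 (edgeR's unadjusted p = 0.018, adjusted p = 0.599). Snora23, in an intron of the nuclear import receptor gene Ipo7, had 72, 104 and 60 against 61, 51 and 39 fragments, with a log2 fold change of −0.48 ± 0.23 (edgeR's adjusted p = 0.603). A share of 7.41% is near that of all genes.

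Snora70, Snora21, Snora28 and Snora3 had from 186 to 367 fragments in all, and each was highest in wild-type library 1. Their log2 fold changes ran from −0.85 to −0.65 with 95% intervals that included 0. Snora26 and Snora47 were the only tested members with a fold change above 0. Snora26 had 7.09, 33 and 8.30 estimated fragments in the wild-type libraries and 24.5, 15.4 and 12.5 in the knockout-labelled libraries, a log2 fold change of 0.26 ± 0.53. Its values are not whole, and it lies wholly inside an exon of the host transcript Dancr. Snora62 (E2), an H/ACA RNA of ribosomal RNA processing, had 20 fragments in all and was not tested.

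Among the Cajal body RNAs, Scarna13 (U93) had 978, 944 and 670 fragments in the wild-type libraries and 691, 649 and 826 in the knockout-labelled libraries. On the CPM scale it stood at 45.6 ± 2.63 and 42.3 ± 2.69 (SD, n = 3), with a log2 fold change of −0.11 and a 95% interval from −0.29 to 0.07. By RefSeq model it is the longest member with a fragment, and of the tested members it has the narrowest interval. Scarna6 (U88) had 304, 461 and 252 fragments against 285, 208 and 262, a log2 fold change of −0.27 (−0.59 to 0.04). Scarna3a had 13, 38 and 18 against 20, 6 and 8, a log2 fold change of −0.86 (−1.97 to 0.24).

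The excess in wild-type library 1 was smaller in each longer range of member lengths, and that in knockout-labelled library 0 fell less evenly. Of the 27 tested members, 25 were highest of all 6 libraries in wild-type library 1 and 26 were highest of their group in knockout-labelled library 0. The same held for 21.1% and 36% of all genes tested. For members of under 70 bases, the summed CPM in wild-type library 1 were 6.99 times the mean of the other wild-type libraries. The ratio was 3.83 from 70 to 99 bases, 2.55 from 100 to 124, 2.32 from 125 to 159 and 1.36 from 160 to 300 bases. In knockout-labelled library 0 the corresponding ratios to the other libraries of its group were 2.71, 3.54, 1.70, 1.85 and 1.15. The ratios under 70 bases rest on few fragments. The sums there were 0.458 and 1.14 CPM in wild-type libraries 0 and 2 and 0.393 and 0.697 in knockout-labelled libraries 1 and 2. For Scarna13, of 275 bases, both libraries lay below the mean of the rest of their group (ratios 0.973 and 0.898).

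**Figure D3:**
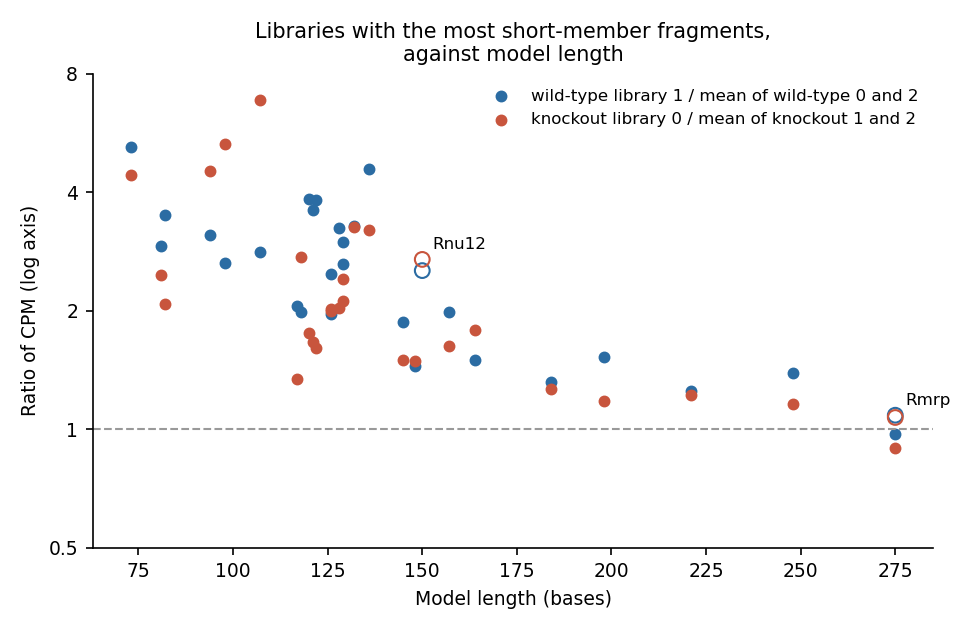
Each tested member has a blue point, the ratio of CPM in wild-type library 1 to the mean of wild-type libraries 0 and 2, and a red point, the same for knockout-labelled library 0 against 1 and 2 (log axis), by model length in bases. Open circles give Rnu12 and Rmrp, which are no members. Ratios are 5.20 and 4.42 for Snord104, the shortest model, and 0.973 and 0.898 for Scarna13, the longest, and do not fall evenly between them.

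A short RNA outside the snoRNAs was also highest of each group in wild-type library 1 and knockout-labelled library 0. Rnu12 (U12, a spliceosomal RNA of 150 bases) stood at 34.4, 124 and 63.7 CPM in wild type and at 77.7, 27.8 and 29.8 in the knockout-labelled libraries. Rmrp, the RNA of a ribosomal RNA processing enzyme, has 275 bases like Scarna13. It stood at 1782, 1914 and 1743 against 1841, 1814 and 1623, a range of less than 1.2 times. Both come from a list of 8 structured RNAs, in which the excess did not fall with length throughout. Rnu11, of 108 bases and 61 fragments in all, was highest in the same libraries of each group. So was Vaultrc5, of 345 bases, at 3.82, 8.35 and 4.74 CPM against 4.95, 4.25 and 4.10. Rpph1, of 325 bases, was not, at 4718, 3672 and 3542 against 4398, 4835 and 4436. The part of library preparation in these differences was not tested.

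The deposited FPKM imply, for each member, a length that differs by library. The length implied by the deposited fragments and FPKM was 166 bases for Scarna13 in wild-type library 1 and 104 in knockout-labelled library 1. For Snora7a, a model of 129 bases, it was 16.6 and 4.38 bases, and for Snord104, a model of 73 bases, 0.587 and 0.0858 bases. Across the tested members the implied length in wild-type library 1 was 1.59 to 7.08 times that in knockout-labelled library 1, with a median of 3.72. For the 3316 genes with a mean of 1000 fragments or more the median was 1.02.

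**Figure D4:**
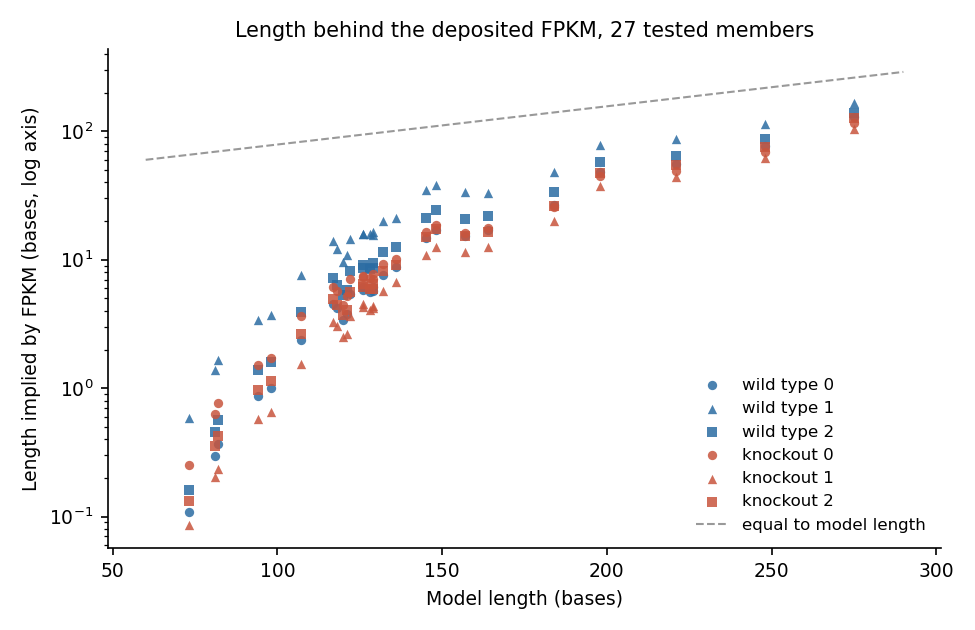
Points give the length in bases implied by the deposited fragments and FPKM (log axis) of each tested member in each library, against model length; the dashed line marks equal lengths. All points lie under the line, and wild-type library 1 (blue triangles) is the highest and knockout-labelled library 1 (red triangles) the lowest.

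These lengths set how FPKM of short members read. In wild-type library 1, 1 fragment was worth 0.618 FPKM for Snora74a, 82.6 for Snord104 and 1090 for Snord99. By mean FPKM over the 6 libraries 20 members stood among the 100 highest genes of the table, and 10 of these had fewer than 100 fragments in all. None stood among the 100 genes with the most fragments. Snord104 ranked 12 by FPKM and 12040 by fragments, and Snord99, with 14 fragments, ranked 18 and 16106.

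On the FPKM scale the direction over the members was not kept. In limma on log2(FPKM + 1), 17 members were above 0 and 10 below (37.0%, against 49.7% of all genes), with a median of 0.05 against 0.00 over all genes. None was called (0% of all genes; adjusted p of the members from 0.630 to 0.995). The sign differed between fragments and FPKM in 15 of 27 members, and 22 were closer to 0 by FPKM. With the implied length as an offset in edgeR, an alternative chosen after the data were seen, the median was 0.11 and none was called, against 1 of all genes (0.00697%). The medians by class were −0.69, −0.69 and −0.27 from fragments and 0.07, 0.04 and 0.15 from FPKM for H/ACA, C/D and Scarna RNAs.

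**Figure D5:**
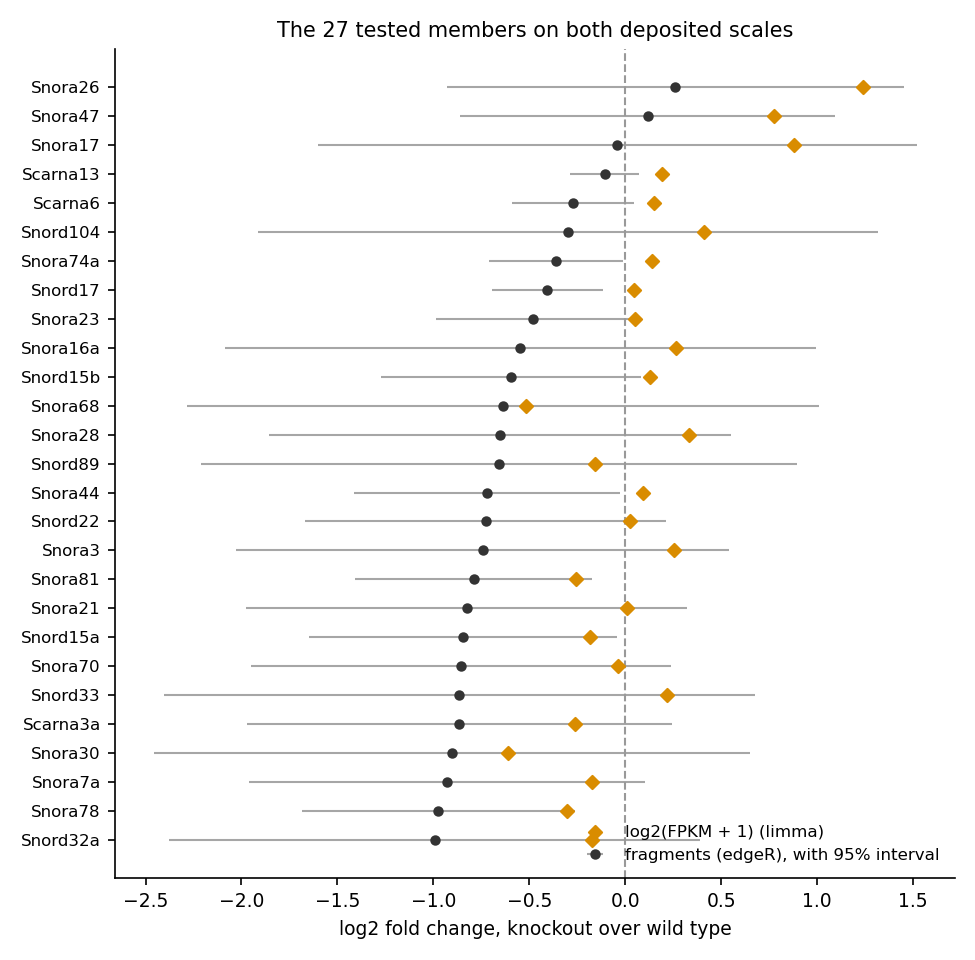
Log2 fold changes of the knockout-labelled over the wild-type group for the 27 tested members, from fragments (black, with 95% intervals, edgeR) and from log2(FPKM + 1) (orange, limma). On fragments 25 members lie below 0, and on FPKM 10 do.

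At an unadjusted p under 0.05 on FPKM, 2 members were higher, Snora26 and Snora47, and none was lower. That p held for 7.83% of all genes in both directions, and 604 of 14354 genes were higher at it. These were also the 2 members (7.41%) higher without overlap on FPKM, against 6.78% of all genes. Snora26 had FPKM of 94.9, 148 and 89.5 in wild type and 267, 380 and 166 in the knockout-labelled libraries, a difference of 1.24 ± 0.29 (SE) on the log2(FPKM + 1) scale (limma's unadjusted p = 0.00199, adjusted p = 0.630). Snora47 had FPKM of 78.7, 72.7 and 76.0 against 171, 144 and 90.5, a difference of 0.78 ± 0.19. These members had 101 and 87.7 fragments in all, and their fragments were estimated as fractions. In the authors' deposited table Snora26 had a log2 fold change of 1.29 with p = 0.0382 and q = 0.622, the smallest q of any member, and no member was marked as changed. In the authors' deposited table Snora78 had a log2 fold change of −0.29 with p = 0.0467, and 49 of the 118 members were not tested.

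Leaving out single libraries moved the members' median more than that of all genes. Without wild-type library 1 it was −0.12, with 2 of 26 members at an unadjusted p under 0.05 by edgeR, against 889 of 14436 genes. Without wild-type library 0, the one with high injury markers and Lyz2, it was −1.02. There 18 of 29 members had such a p, against 1615 of 14453 genes. Without knockout-labelled library 0 it was −1.14, with 15 of 27 members against 1277 of 14591 genes. Leaving out knockout-labelled library 1 gave a median of −0.58, with 1 of 29 members against 516 of 14607 genes. For knockout-labelled library 2 it was −0.44, with 1 of 29 members against 1028 of 14514 genes. Without both wild-type library 1 and knockout-labelled library 0, an alternative chosen after the data were seen, the median over 23 members was −0.44. Such a p held for 6 of these members and for 970 of 14330 genes. No member was called in any of these fits. The part of the marker differences in these values was not tested.

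The host genes showed no common direction. Matched by strand, GENCODE places 101 members in an intron, 10 in an exon and 6 outside any host. By gene name the table holds the host of 107 members, of which 32 lie in ribosomal protein genes. This match missed some hosts. Snora17 and Snora43 share a deposited locus of 3069 bases, the length of Snhg7, and Snora74a has one of 4907 bases, the length of Snhg4. Snhg7 and Snhg4, with log2 fold changes of −0.12 and 0.05, are therefore not in the host counts. Of the 18 matched hosts tested whose member was tested, 7 were lower and 11 higher, with a median log2 fold change of 0.03 and none called by edgeR. Wild-type library 1 was the highest library in 5 of these 18 hosts. The 23 tested ribosomal protein hosts ranged from −0.06 to 0.13.

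Hosts of some named members are given side by side with them. Rps3 stood at 273 ± 4.0 CPM in wild type and 288 ± 13.4 in the knockout-labelled group (SD, n = 3), a log2 fold change of 0.08 beside −0.59 for Snord15b. Snx5, a sorting nexin gene that holds Snord17, had 0.12 beside −0.41. Snhg1, the noncoding host of Snord22, had 0.11 beside −0.73, and Rpl13a had 0.07 beside −0.99 for Snord32a. Eif4a2 had 0.16 beside −0.79 for Snora81, and Rpl32 −0.04 beside −0.93 for Snora7a. Snhg12, the noncoding host of Snora44, had −0.21 beside −0.72. It was lower without overlap, at 7.21 ± 0.37 against 6.25 ± 0.20 CPM, as were 6.96% of all genes tested. In GENCODE, Snora7a and Snora44 lie wholly inside exons of Rpl32 and Snhg12. Fragments of these RNAs and of their hosts may therefore not be fully separate. Snhg10, the noncoding host of Scarna13, had −0.59 ± 0.40 at group means of 0.768 and 0.515 CPM. Zbed3, the host of Snora47, was the only matched host at an unadjusted p under 0.05, with a log2 fold change of −0.36 ± 0.11 (edgeR's adjusted p = 0.599). The difference between an RNA and its host was not tested.

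None of the core proteins that bind these RNAs was called by edgeR. Of the core C/D proteins, the methyltransferase Fbl had a log2 fold change of −0.02 ± 0.08 (SE), its partners Nop56 −0.05 ± 0.09 and Nop58 0.02 ± 0.11, and Nhp2l1, which binds the RNA first, −0.01 ± 0.07. Of the core H/ACA proteins, the pseudouridine synthase Dkc1 had −0.10 ± 0.09, Nhp2 0.25 ± 0.19, Nop10 0.12 ± 0.07 and Gar1 −0.35 ± 0.27. None of these 8 proteins had an unadjusted p under 0.05.

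Of 10 assembly factors 3 were lower and 7 higher, with a median log2 fold change of 0.08. Naf1, which escorts H/ACA complexes before Gar1 joins, was lower without overlap at 7.37 ± 1.05 against 5.63 ± 0.33 CPM (SD, n = 3), a log2 fold change of −0.39 ± 0.14 (edgeR's unadjusted p = 0.021, adjusted p = 0.599). Nufip1, Pih1d1 and Taf9 of the same list were higher without overlap, at log2 fold changes of 0.12, 0.10 and 0.11. The groups did not overlap in 6.96% of all genes in the lower and 7.12% in the higher direction. Of 13 processing factors 9 were lower and 4 higher (median −0.07). Papd7, a poly(A) polymerase, had −0.24 ± 0.11 (edgeR's adjusted p = 0.599). The list of 6 proteins for the Cajal body also counts the nucleolar protein Tcof1. These 6 and the 10 proteins of the U3 processome divided evenly by direction, with medians of 0.00 and 0.00. Tcof1 had −0.24 ± 0.16 and Nol6 −0.16 ± 0.10, the smallest p of their lists. None of these proteins was called.

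Of 13 tested noncoding transcripts listed as hosts or their neighbours, 10 were lower and 3 higher (median −0.09), where 51.7% of all genes were lower. Meg3, of the imprinted cluster that also holds the snoRNA host Rian, had a log2 fold change of −0.89 ± 0.32 (edgeR's unadjusted p = 0.020, adjusted p = 0.599). Meg3 is not a matched host of any member. Its groups overlapped, at 4.96, 7.92 and 3.05 CPM in wild type against 2.85, 2.26 and 3.56, and wild-type library 1 was the highest. Rn45s, the ribosomal RNA precursor on which the nucleolar members act, stood at 4286, 6826 and 4588 CPM in wild type and at 3652, 3296 and 3317 in the knockout-labelled libraries. It was lower without overlap. Wild-type library 1 was again the highest, and knockout-labelled library 0 was the highest of its group. The log2 fold change of Rn45s was −0.61 ± 0.16 (edgeR's unadjusted p = 0.0039, adjusted p = 0.599). Ribosomal RNA was depleted before sequencing, and the part of depletion in this difference was not tested.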

How the data were processed

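The tools named in the submitters' processing notes are Cufflinks 2.2.1 with Cuffdiff, TopHat2 2.0.13, cutadapt 1.2.1, SAMtools 1.2 and Bowtie2 2.2.3, on mm10, with roles unstated. Gene models and the handling of multiply aligned fragments were not given in the sources used here, so overlapping or near-identical genes are uncertain. The authors deposited estimated counts of fragments and FPKM per gene and library. The authors also deposited group mean FPKM with a log2 fold change, p-value and q-value.

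After rounding, the filterByExpr filter and TMM scaling, counts were tested by the two-sided quasi-likelihood method of edgeR 4.0.16 with no covariates (R 4.3.3), and p was adjusted by Benjamini-Hochberg over 14354 genes. CPM values use TMM-scaled sizes, except class and length sums, which use all assigned fragments. FPKM were tested with limma 3.58.1 on log2(FPKM + 1), which understates changes of low genes. DESeq2 1.42.0, limma-voom, other scalings, filters and left-out libraries were alternatives. The script was tested on simulated counts. The implied length is CPM times 1000, divided by FPKM, and contains Cuffdiff's scaling between libraries.

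Boxes, positions and hosts come from GENCODE M21 and lengths from RefSeq on GRCm38.p6. Lengths and positions matched 117 of 118 members, and the model length equalled the deposited locus in 7 of 8 loci that could be compared, within 1 base.

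Members and lists were chosen with earlier results of these data known. Named are, in each class, up to 10 members with the most fragments and a mean of at least 10. Added are tested members with an unadjusted p under 0.05 or the largest change in each direction, and members of the lists on ribosomal RNA processing and Rpl13a introns with that mean. Core proteins, some hosts of named members, and of each other list the genes with an unadjusted p under 0.05 or the smallest p are named too. Snora47, Snora62, Snord33, Snord34, Snord35a, Snord99, Scarna2, Scarna10 and members at 0 were named after their values were seen. The same holds for Rnu12, Rmrp, Rnu11, Vaultrc5, Rpph1, Nufip1, Pih1d1, Taf9 and the marker genes with values. The labels call the samples biological replicates and tie no library to a named mouse.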

Additional observations from a re-analysis of the deposited data

How the results depend on the processing

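No paired analysis was possible because the numbers of the libraries in the deposited table match no sample label and the labels give no pairing. At this depth 27 of 118 members had enough fragments to be tested. Over all genes, 13 were called by DESeq2, 1 without a filter, 1 with the implied length as an offset and 0 to 1 with single libraries left out. Members with an unadjusted p under 0.05 numbered 10 of 75 without a filter (1413 of 18727 genes) and 3 of 27 by limma-voom (1159 of 14354 genes). They numbered 2 of 27 on log2(FPKM + 1) (1124 of 14354 genes) and 3 of 27 on log2(FPKM + 0.1) (1122 of 14354 genes). For the implied length as an offset the number was 2 of 27 (1420 of 14343 genes). With single libraries left out it was 1 to 18 members, against 516 to 1615 of all genes. No member, host or listed protein was called under any alternative run. Members with a fragment in every library numbered 15 for C/D and 4 for Scarna RNAs. Members with a mean of at least 10 fragments numbered 16 for H/ACA, 8 for C/D and 3 for Scarna RNAs. Without Scarna13 the log2 ratio of the Scarna sum was −0.35. Leaving out single libraries gave log2 ratios from −0.73 to −0.18 for H/ACA, −0.73 to −0.24 for C/D and −0.25 to −0.13 for Scarna RNAs. On log2(FPKM + 1) the sign turned in Scarna13 (0.19), Scarna6 (0.15), Snora21 (0.0078), Snora23 (0.053), Snora28 (0.33), Snora3 (0.25), Snora44 (0.095), Snora74a (0.14), Snord104 (0.41), Snord15b (0.13), Snord17 (0.045) and Snord22 (0.027). On log2(FPKM + 0.1) the same 12 members turned, with the same rounded values except Snora21 (0.0075) and Snora28 (0.34). With the implied length as an offset the sign turned in Scarna13 (0.20), Scarna6 (0.17), Snora21 (0.044), Snora23 (0.11), Snora28 (0.22), Snora3 (0.14), Snora44 (0.11), Snora74a (0.16), Snord104 (0.54), Snord15b (0.18), Snord17 (0.084), Snord22 (0.090) and Snord89 (0.17). Without wild-type library 1 and knockout-labelled library 0 the sign turned in Snora28 (0.088). Leaving out single libraries turned the sign in these members, with ranges of −1.27 to 0.018 for Snora21, −0.13 to 1.23 for Snora26, −1.05 to 0.35 for Snora28, −1.18 to 0.28 for Snora3, −1.39 to 1.01 for Snord104 and −1.74 to 0.17 for Snord89. The cause was not tested. Of these, Snora21, Snora28, Snora3, Snord104 and Snord89 turned without wild-type library 1, and Snora26 without wild-type library 0 or knockout-labelled library 0. Snord104 also turned without knockout-labelled library 1 or 2.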
